A study of Mus musculus with 102 samples.

Results

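Cisplatin followed by a spinal saline injection was compared with no treatment in microglia of wild type (WT) mice, across every gene expressed there. The groups compared hold 6 of the 17 biological samples of the study: samples 1, 2 and 3 of the WT naive group and samples 4, 5 and 6 of the WT cisplatin saline group. They hold 36 of the 102 sequencing runs. Microglia, the resident macrophages of the central nervous system, were sorted by flow cytometry from the lumbar spinal cord, and their polyadenylated RNA was amplified and sequenced.

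The naive mice had received nothing. The treated mice had received cisplatin into the peritoneum on days 1 and 3 and saline into the spinal canal (intrathecal) on day 7. Both groups were genotype WT, with no floxed allele and no Cre named in their labels. No group with an injection but without cisplatin was among the samples, so effects of cisplatin, of the peritoneal injections and of the intrathecal injection cannot be told apart. The labels give no dose, no strain, sex or age, no day of collection, and do not state how many mice went into each sample. The p-values below come from a fit of all 17 samples, so they measure the spread within every group of the study, which may be partly technical.

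Cisplatin is a platinum drug that crosslinks DNA, and painful neuropathy is one of its common toxic effects. Spinal microglia respond to injured sensory neurons through purine receptors, scavenger receptors and Toll-like receptors, and they can move from a surveying, so-called homeostatic state to reactive states with more secretion, lipid uptake or division. Homeostatic microglia are recognised by genes such as P2ry12, Tmem119 and Cx3cr1.

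The 6 samples held between 51.5 and 63.1 M counts each (M, 1000000), and their 18 technical replicate libraries between 9.04 and 27.9 M. Between 18817 and 20889 genes were detected in the naive samples and 20749 to 21462 in the treated samples. Mitochondrial genes took 1.61 to 2.09% of counts in naive and 2.18 to 2.57% in treated samples, and the 10 most abundant genes 11.95 to 13.6% and 9.79 to 10.9%. The part of these differences in the results was not tested. The microglial marker Tmem119 was high in all 6 samples: it stood at 5982, 5699.6 and 4733 CPM (counts per 1000000 counts of a sample) in naive 1, 2 and 3 and at 3878, 2589 and 3156 CPM in treated 4, 5 and 6. Ddx3y, a Y-linked gene, was present in all 6 samples, and Xist was at most 0.0163 CPM.

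Of 20461 genes tested, 595 (2.91%) passed at an adjusted p under 0.05 (edgeR's quasi-likelihood test, Benjamini-Hochberg over all genes). Of these, 400 (1.95% of all tested) were higher and 195 (0.953%) were lower after treatment. The counts given for each gene group below are to be read beside these shares. An unadjusted p under 0.05 was reached by 3606 genes. The spread was estimated from all 17 samples, the groups given AIBP and the floxed mice included, and with the 6 samples alone 69 genes passed (61 higher, 8 lower). The median log2 fold change of all genes was -0.01. Among called genes, 305 rises and 125 falls were at least 2-fold, 564 encoded proteins, and in 592 the 3 treated samples lay wholly above or below the 3 naive samples. Over all genes tested, 22.8% had groups that did not overlap. In each of 6 fits that left out 1 of the 6 samples, 115 rises and 22 falls kept their call. The number called was 149 without treated sample 5, 220 without sample 6, 853 without sample 4, and 221, 279 and 337 without naive 1, 2 and 3.

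**Figure D1:**
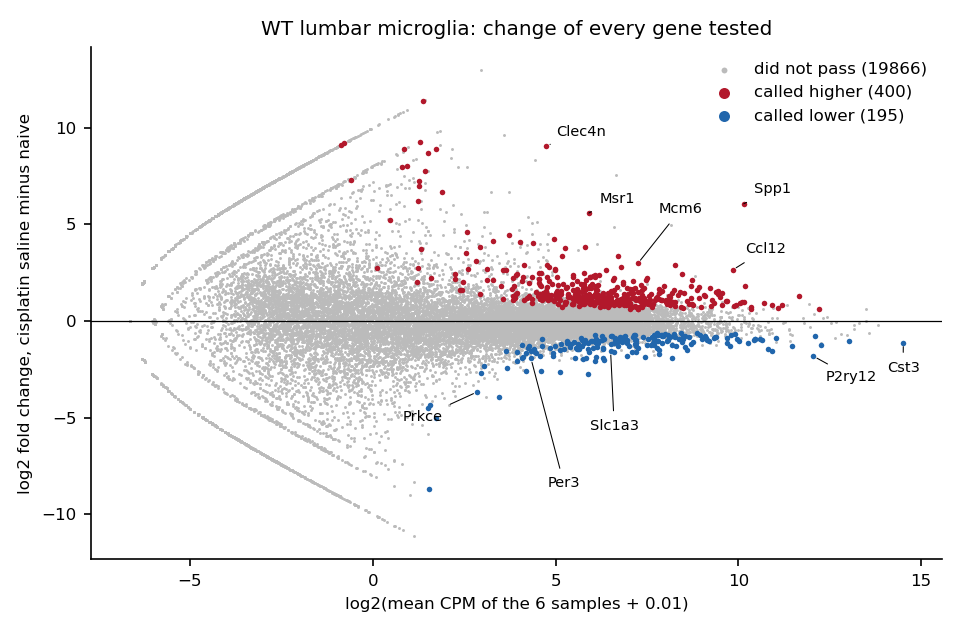
Log2 fold change (cisplatin saline minus naive, n = 3 each) against log2 of the mean CPM of the 6 samples, 1 point per gene tested. The 400 genes called higher (red) and 195 called lower (blue) lie mostly at moderate to high levels, and at low levels most large fold changes did not pass.

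Homeostatic microglial genes that fell included receptors of purines. P2ry12 (chromosome 3, 59216272 to 59262871 on GRCm38), the ADP receptor that guides microglial processes to injury, stood at 7225, 6936 and 5651 CPM in naive and 2584, 1008 and 2015 CPM in treated samples (log2 fold change -1.82 ± 0.33, edgeR adjusted p = 0.0094). All 3 treated samples were below all 3 naive ones, and sample 5 was lowest. P2ry13, another ADP receptor, fell from 1761, 1978 and 1756 to 924, 817 and 1071 CPM (-0.97 ± 0.16, edgeR adjusted p = 0.0052), to a similar level in each treated sample. Entpd1, the ectoenzyme CD39 that breaks down extracellular ATP and ADP, fell from 1338, 1299.8 and 1083 to 606, 356 and 537 CPM (-1.31 ± 0.25). These were 3 of 18 tested genes of purine signalling to pass. P2rx4, the ATP-gated channel linked to neuropathic pain, was chosen after its values were seen: it stood at 244, 282 and 294 and 225, 264 and 289.7 CPM and did not pass (adjusted p = 0.866).

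Of 27 homeostatic genes, 9 fell, 0 rose and 18 did not pass. Their median log2 fold change was -0.78, and 20 had treated samples wholly below naive ones (22.8% of all genes did not overlap, in either direction). Beside the purinergic genes these included Gpr34, a lysophosphatidylserine receptor, at 2985, 3108 and 2499 CPM in naive and 1246, 650.0 and 1063 CPM in treated samples (-1.54 ± 0.30). Cst3, which encodes the protease inhibitor cystatin C, fell from 34597, 34085 and 27083 to 18355, 10175 and 15694 CPM (-1.11 ± 0.20). The largest fall among those that passed was that of Upk1b, a tetraspanin gene, from 134, 118 and 77.9 to 42.5, 16.3 and 20.4 CPM (-2.06 ± 0.35, edgeR adjusted p = 0.00725). Selplg (-1.04), Ltc4s (-1.16) and Tmem119 (-0.77) were the other members that passed. With 1 sample left out in turn, 4 (without sample 5) to 13 (without sample 4) members fell, and 0 rose.

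Not every identity gene was lower. Fcrls stood at 2065, 2124 and 1803 CPM in naive and 1932, 2334 and 2488 CPM in treated samples, and Olfml3 at 3355, 3347 and 3281 and 3393, 3410.3 and 4108 CPM, and neither passed (adjusted p = 0.636 and 0.782). Cx3cr1, the fractalkine receptor (-0.72, adjusted p = 0.0505), and Csf1r, the survival receptor of microglia (-0.67, adjusted p = 0.0515), were lower in value and narrowly missed the threshold. Of 30 transcription factors of the lineage, 1 fell, Irf2 (from 163, 123 and 101 to 73.3, 58.4 and 73.1 CPM, -0.92 ± 0.20). That is 3.33% of the group, against 0.953% of all genes. Of 26 genes of TGF-beta signalling, which maintains the homeostatic state, 0 passed in either direction by edgeR (6 had an unadjusted p under 0.05, and DESeq2 called 2 lower). The receptor gene Tgfbr1 was at -1.23 (adjusted p = 0.0764). In sorted bulk RNA, fewer cells of a type and less RNA per cell cannot be told apart.

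Genes outside that group also fell. Ptafr, the receptor of platelet-activating factor, stood at 327, 360.4 and 358 CPM in naive and 121, 98.7 and 103 CPM in treated samples (-1.697 ± 0.21, edgeR adjusted p = 0.00127). Cd300a, an inhibitory receptor that binds exposed phospholipids, fell from 299, 289.6 and 231 to 94.7, 45.8 and 85.4 CPM (-1.86 ± 0.24). Dhrs3, a retinaldehyde reductase gene, fell from 548, 598 and 559.6 to 216, 169 and 222 CPM (-1.49 ± 0.19). In each of these genes the 3 treated values lay far below the naive ones.

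Adap2, a regulator of Arf GTPases, fell from 573, 446 and 577 to 276, 161 and 202 CPM (-1.32 ± 0.22), and the neighbouring Adap2os from 246, 206 and 218 to 80.7, 65.98 and 70.9 CPM (-1.62 ± 0.19). Adap2os is annotated on the opposite strand and the strand setting of the counting is not given in the sources used here, so these may share reads. Per3, a circadian period gene, fell from 29.7, 30.3 and 35.2 to 8.69, 8.796 and 7.45 CPM (-1.93 ± 0.30, edgeR adjusted p = 0.00373), and Trp53i11, a gene inducible by p53, from 33.3, 21.8 and 38.4 to 5.695, 5.08 and 4.71 CPM (-2.595 ± 0.38). Snx29, a sorting nexin gene, fell from 126, 90.4 and 154 to 41.8, 21.1 and 34.9 CPM (-1.92 ± 0.30). The treated values of Per3 and Trp53i11 differed little among samples 4, 5 and 6.

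Of 25 tested genes for ion channels and protein kinase C, the 4 that fell were kinase genes: Prkcd (-0.75), Prkch (-2.65), Prkce (-3.67) and Prkca (-1.57). Prkce, the epsilon isoform, was at 13.8, 20.7 and 5.81 CPM in naive and 0.324, 0.933 and 1.896 CPM in treated samples. No member rose, and the number that fell was 0 without sample 5, sample 6 or naive 1, 1 without naive 2, 3 without naive 3 and 4 without sample 4. Slc1a3, a glutamate transporter gene that astrocytes express strongly, fell from 156, 129 and 121 to 56.3, 43.6 and 38.6 CPM (-1.55 ± 0.24, edgeR adjusted p = 0.00404). It was the 1 of 8 astrocyte markers to pass. The summed level of those 8, which includes Slc1a3 itself, was 328, 415 and 298 CPM in naive 1, 2 and 3. It was 133, 197 and 302 CPM in treated samples 4, 5 and 6, highest in sample 6, where Slc1a3 was lowest. The part of astrocyte RNA in the fall of Slc1a3 was not tested.

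**Figure D2:**
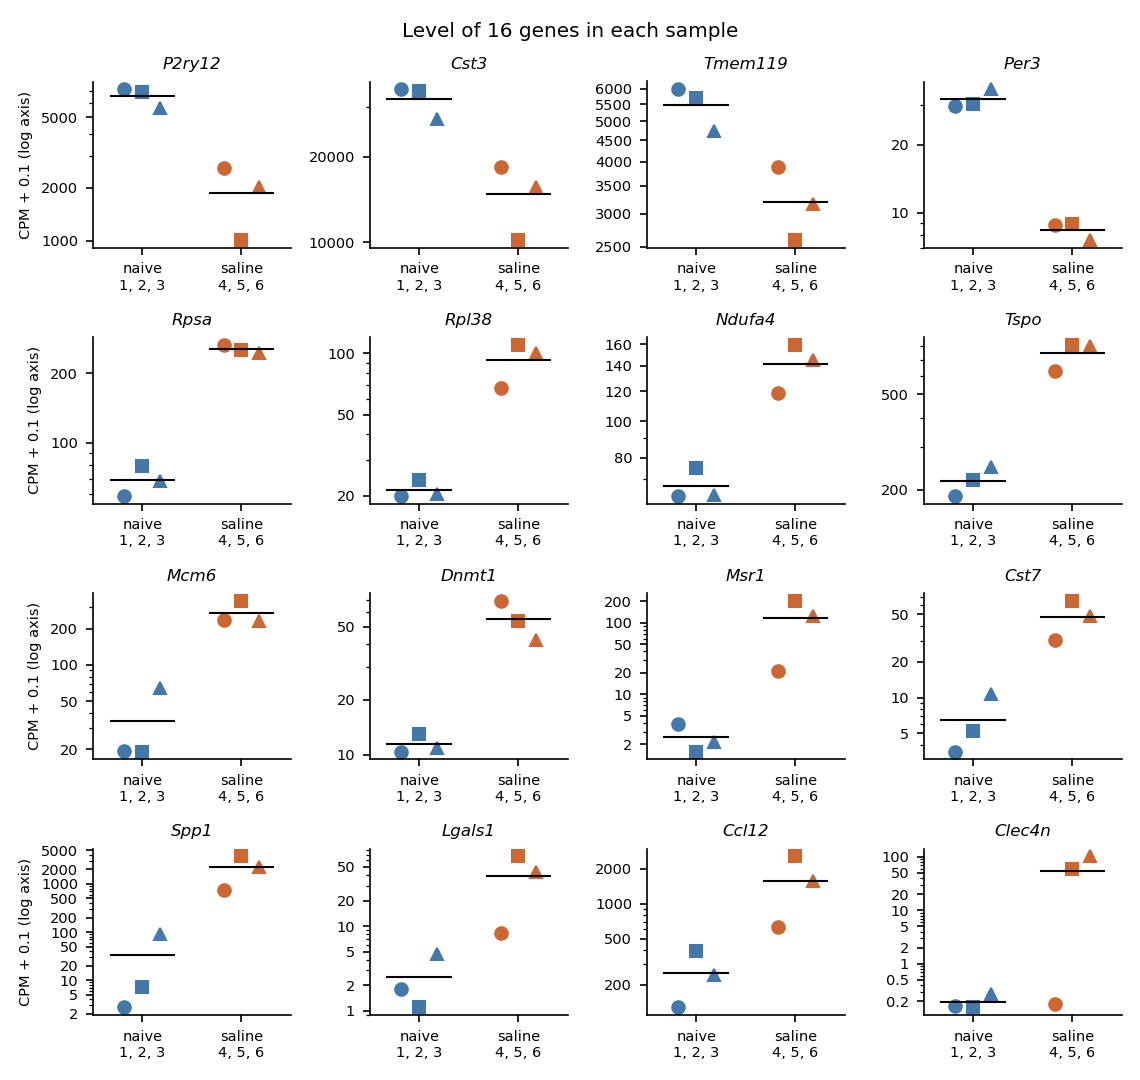
CPM plus 0.1 (log axis, scaled for each gene) of 16 genes in the 3 naive samples (blue) and the 3 treated samples (orange). Circle, square and triangle mark samples 1, 2 and 3 or 4, 5 and 6, and bars mark group means. The groups do not overlap in 15 of the genes, and for Clec4n sample 4 lies among the naive samples.

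Ribosomal protein genes rose together. Of 82 tested, 62 rose, 0 fell and 20 did not pass, against 1.95% of all genes rising. In 76 the treated samples lay wholly above the naive ones (22.8% of all genes did not overlap, in either direction). The median log2 fold change was 1.06, and 0.86 with sample 4 as the only treated sample. With 1 sample left out in turn, 37 (without sample 5) to 67 (without sample 4) rose. Rpsa (chromosome 9, 120127689 to 120132369), which encodes the small subunit protein and laminin receptor RPSA, had the smallest p of all genes, with 58.7, 79.1 and 68.2 CPM in naive and 265, 252 and 243 CPM in treated samples (1.88 ± 0.17, edgeR adjusted p = 0.00034). Rpl38 (chromosome 11, 114668524 to 114672331), a large subunit protein gene, rose from 19.8, 23.7 and 20.3 to 67.1, 110.1 and 101 CPM (2.12 ± 0.21). Rps21 rose from 13.1, 16.9 and 13.4 to 46.5, 60.3 and 50.6 CPM (1.86 ± 0.19) and Rps26 from 31.3, 36.1 and 29.2 to 79.3, 80.2 and 83.02 CPM (1.33 ± 0.16).

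Within the group the rises spanned 0.61 (Rps4x) to 2.12 (Rpl38) on the log2 scale. None of the 4 members with a negative fold change passed, among them the paralog gene Rpl22l1 (26.2, 33.02 and 27.8 CPM in naive and 24.6, 13.8 and 22.5 CPM in treated samples). Many ribosomal protein genes have near-identical processed pseudogenes, and how shared reads were counted is not given in the sources used here, so single values are uncertain. Rpl23a, at 0.768, 1.19 and 0.764 CPM in naive and 2.29, 4.73 and 4.17 CPM in treated samples, is an example of a low level in this group.

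Many ribosomal protein transcripts begin with a cytosine followed by a run of pyrimidines, the element through which growth signals control their translation. Windows of RefSeq (GRCm38.p6) around the annotated start were searched on the gene's strand for a run of 6 or more C or T that opens with C within 5 bases of the start. Of the 82 genes, 61 matched, with 72 promoters, and 28 of these (38.9%) held such a run, against 10.2% of all 32851 promoters. Among the genes that rose, 20 of 56 promoters (35.7%) held it, and among those that did not pass, 8 of 16 (50%). The share was thus not higher among the genes that rose. The windows below show 30 bases before and 30 bases from the annotated start for 3 of the genes with the smallest p that hold the run, and for Rpsa, which does not. Capitals mark the run, and all 4 windows read 5′ to 3′ on the plus strand except Rps26, on the minus strand.
Rpl38, chr11:114668550-114668609: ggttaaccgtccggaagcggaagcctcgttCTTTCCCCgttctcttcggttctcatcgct
Rps21, chr2:180257349-180257408: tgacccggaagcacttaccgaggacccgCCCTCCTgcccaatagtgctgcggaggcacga
Rps26, chr10:128626477-128626536: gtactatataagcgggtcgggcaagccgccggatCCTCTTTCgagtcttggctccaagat
Rpsa, chr9:120127736-120127795: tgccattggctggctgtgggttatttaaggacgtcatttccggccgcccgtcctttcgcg
A match describes letters in a window, and the absence of 1 says only that these letters are not there.

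Other genes of protein synthesis rose in part. Of 41 translation factors, 8 rose and 0 fell, with Eef1g, a subunit of elongation factor 1, from 36.9, 53.8 and 55.1 to 129, 229 and 187 CPM (1.903 ± 0.25) and Eif5a, the hypusine-carrying factor, from 541, 489.6 and 518 to 1197, 2485 and 1699.6 CPM (1.797 ± 0.33). Of these factors 2 (without sample 5) to 13 (without sample 4) rose when 1 sample was left out. Rack1, a scaffold protein of the small subunit, rose from 181, 173 and 204 to 491, 753 and 701 CPM (1.801 ± 0.19, edgeR adjusted p = 0.000604). Of 34 ribosome biogenesis genes 3 rose, Nop10 (1.22), Npm1 (1.29) and Nhp2 (1.599), with 0 without sample 5, 1 without sample 6 or any 1 naive sample and 9 without sample 4. Of 77 mitochondrial ribosomal protein genes 4 rose (5.19%, against 1.95% of all genes), led by Mrpl20 (1.403), and 0 fell. Their number was 0 without sample 5, 1 or 2 without sample 6 or any 1 naive sample and 12 without sample 4.

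Respiratory chain genes encoded in the nucleus followed. Of 73, 30 rose and 0 fell, and all 73 had a positive fold change (median 0.73, and 0.58 with sample 4 alone). Leaving out 1 sample in turn, 10 (without sample 5) to 35 (without sample 4) rose. Atp5g3, a subunit of the proton ring of ATP synthase, rose from 42.1, 49.5 and 34.6 to 93.05, 130.0 and 124 CPM (1.46 ± 0.18, edgeR adjusted p = 0.00113). Uqcr11, a complex III subunit gene, rose from 135, 127 and 122 to 253, 363 and 302 CPM (1.26 ± 0.18), and Cox6b1, of complex IV, from 122, 122 and 109 to 212, 254 and 254 CPM (1.03 ± 0.16). Of 11 tested genes encoded in the mitochondrial genome, 1 rose, mt-Nd1 (0.82), with a group median of 0.27.

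In glycolysis 6 of 21 genes rose and 0 fell. The number that rose was 1 without sample 5 or naive 1, 2 without sample 6 or naive 2, 3 without naive 3 and 6 without sample 4. Pkm, the pyruvate kinase gene, stood at 209, 279 and 343 CPM in naive and 704, 1159 and 874 CPM in treated samples (1.72 ± 0.29). Slc16a1, the lactate transporter gene MCT1, rose from 10.3, 11.7 and 17.04 to 30.5, 42.3 and 31.9 CPM (1.42 ± 0.32), and Gapdh (1.57), Ldha (1.52), Pgk1 (1.22) and Tpi1 (1.07) also passed. Sample 5 was the highest of the 3 treated samples for these genes.

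DNA replication genes were higher in all 3 treated samples. Of 41 genes for origin licensing and the replication fork, 17 rose and 0 fell, and all 41 had a positive fold change. In 36 the treated samples lay wholly above the naive ones (22.8% of all genes did not overlap, in either direction). The median log2 fold change was 1.74, and 1.85 with sample 4 as the only treated sample. Dnmt1, the maintenance DNA methyltransferase, stood at 10.3, 12.9 and 10.8 CPM in naive and 69.3, 53.5 and 42.1 CPM in treated samples (2.28 ± 0.32, edgeR adjusted p = 0.00244), highest in sample 4. With 1 sample left out in turn, 5 (without naive 2) to 17 (without naive 3) of the group rose. Dnmt1 was among the 7 genes of all tested that passed with sample 4 as the only treated sample.

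Of the 6 subunits of the MCM helicase, each rose. Mcm6 (chromosome 1, 128331590 to 128359664) stood at 19.3, 18.98 and 64.6 CPM in naive and 235, 341 and 233 CPM in treated samples (2.97 ± 0.50, edgeR adjusted p = 0.0067). Mcm2 rose from 4.06, 16.4 and 35.9 to 126, 263 and 184 CPM (3.34 ± 0.62) and Mcm3 from 113, 105 and 154 to 307, 434 and 337 CPM (1.54 ± 0.24). Mcm4 (2.28), Mcm5 (2.78) and Mcm7 (1.62) completed the ring. Naive 3 was the highest naive sample for every subunit, and it was still below each treated sample.

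The licensing genes Orc6 (1.78) and Cdt1 (1.74), the GINS genes Gins1 (2.15) and Gins2 (2.79), the clamp loader genes Rfc2 (1.17) and Rfc4 (2.67), and Dut (2.35), which keeps uracil out of DNA, rose too. Pcna, the sliding clamp, stood at 71.6, 57.7 and 79.7 CPM in naive and 115, 155 and 124 CPM in treated samples and narrowly missed the threshold (adjusted p = 0.0586).

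E2F factors switch on replication genes through sites of the type TTTCCCGC or TTTGGCGC. Both were searched on both strands in the RefSeq promoters (GRCm38.p6), from 250 bases before to 50 bases after each start. Matches on opposite strands can share the bases at their GC ends. Of the 41 genes, 33 matched, with 40 promoters, and 11 (27.5%) held a match, against 1.56% of all 32851 promoters and 2.68% of those of genes tested. Of the promoters of genes that rose 6 of 18 (33.3%) held a match, and of those that did not pass 5 of 22 (22.7%). Over all called genes, 18 of 375 promoters of genes that rose (4.8%) and 4 of 225 of genes that fell (1.78%) held one. The promoters of 3 helicase genes with matches are shown, 5′ to 3′ on the strand of the gene, with matches in capitals. Mcm3 and Mcm6 lie on the minus strand and Mcm5 on the plus strand. Mcm2 had no match in its window.
Mcm3, chr1:20820263-20820562: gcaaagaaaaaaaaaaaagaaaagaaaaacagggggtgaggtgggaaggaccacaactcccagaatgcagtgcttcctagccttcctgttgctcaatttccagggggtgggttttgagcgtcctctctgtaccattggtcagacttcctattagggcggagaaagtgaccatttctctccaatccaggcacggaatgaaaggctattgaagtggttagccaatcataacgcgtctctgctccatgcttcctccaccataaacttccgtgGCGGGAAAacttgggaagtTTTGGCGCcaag
Mcm5, chr8:75109259-75109558: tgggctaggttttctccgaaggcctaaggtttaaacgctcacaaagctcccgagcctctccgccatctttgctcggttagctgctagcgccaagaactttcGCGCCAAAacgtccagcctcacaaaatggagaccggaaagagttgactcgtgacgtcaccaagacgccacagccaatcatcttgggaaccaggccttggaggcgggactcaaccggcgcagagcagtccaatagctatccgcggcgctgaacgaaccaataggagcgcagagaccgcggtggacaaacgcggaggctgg
Mcm6, chr1:128359656-128359955: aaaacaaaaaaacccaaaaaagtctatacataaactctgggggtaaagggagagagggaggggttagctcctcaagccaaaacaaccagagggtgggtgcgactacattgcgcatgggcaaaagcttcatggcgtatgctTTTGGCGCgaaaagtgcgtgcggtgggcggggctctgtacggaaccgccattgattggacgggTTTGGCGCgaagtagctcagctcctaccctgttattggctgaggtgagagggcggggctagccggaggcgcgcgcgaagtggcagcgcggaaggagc
A match is a description of these letters, not a site shown to be bound.

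Of 37 genes of mitosis 4 rose by edgeR, with 0 lower and a median log2 fold change of 1.18, and 2 rose without sample 5, sample 6 or naive 1. In 33 the fold change was positive. In 19 the treated samples lay wholly above the naive ones (22.8% of all genes did not overlap, in either direction). DESeq2 called 14 higher. Top2a, topoisomerase II alpha, rose from 0.202, 1.299 and 1.59 to 22.9, 15.3 and 17.5 CPM (4.16 ± 0.77, edgeR adjusted p = 0.0101). Its libraries varied widely within a sample, from 11.3 to 44.2 CPM in sample 4 and from 1.36 to 25.1 CPM in sample 5. Tuba1b (1.18), Tuba1c (0.93) and Stmn1 (1.52), all of microtubules, were the others that rose by edgeR. Mki67, the usual proliferation marker, stood at 5.66, 2.21 and 5.48 CPM in naive and 13.2, 3.36 and 6.67 CPM in treated samples, with overlapping groups (chosen after its values were seen).

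Genes that act on damaged DNA rose in part. Of 45 genes for repair of platinum adducts and crosslinks, 3 rose: Brca2 (2.05), Mad2l2 (1.22) and Brip1 (4.61), the last a helicase gene at 0.0202, 1.03 and 0.334 CPM in naive and 19.6, 8.201 and 6.29 CPM in treated samples. That is 6.67% of the group, against 1.95% of all genes, and DESeq2 called 6 higher. Without sample 5, sample 6 or naive 3, 0 of them passed by edgeR. Mms22l, which acts with homologous recombination at stalled forks, rose from 1.496, 4.65 and 6.34 to 38.6, 33.7 and 20.6 CPM (2.895 ± 0.53), and Psmc3ip, a recombination cofactor, from 2.08, 3.702 and 4.06 to 14.5, 26.1 and 20.2 CPM (2.62 ± 0.42). Of 29 p53 targets 0 rose and 1, Trp53i11, fell by edgeR, while 6 had an unadjusted p under 0.05 and DESeq2 called 2 higher and 2 lower. Cdkn1a, the cell cycle inhibitor p21 and a leading p53 target, stood at 52.4, 81.8 and 101 CPM in naive and 173, 240.4 and 185 CPM in treated samples without passing (1.34 ± 0.37, adjusted p = 0.0665). Among 17 tested transport genes for platinum and metals, only Fth1, the ferritin heavy chain, rose (0.82). That is 5.88% of the group, against 1.95% of all genes.

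Protein folding and turnover genes rose in part. Of 28 genes of endoplasmic reticulum (ER) chaperones and the unfolded protein response, 10 rose and 0 fell. Manf, a secreted ER stress protein, rose from 82.4, 73.6 and 90.6 to 139, 376 and 235 CPM (1.603 ± 0.29), and Calr, the chaperone calreticulin, from 306, 240.0 and 337 to 667, 648 and 728 CPM (1.21 ± 0.19, edgeR adjusted p = 0.00479). With 1 sample left out, 3 (without sample 5) to 11 (without sample 4) of them rose, and 4 did without each of the others. Of 37 proteasome genes 8 rose (1 without sample 5 or naive 3, 20 without sample 4) and 0 fell, among them Psme1 (0.88) and Psme2 (0.76), the activator subunits, and the core subunit Psmb4 (0.87). Of 22 heat shock genes Hspe1 (1.31) and Hsp90ab1 (0.94) rose. In the antioxidant group 4 of 29 rose: Txn1 (1.22), Txnrd1 (1.02), Prdx1 (0.90) and Prdx2 (0.76), all of the thioredoxin and peroxiredoxin system. None of the 4 kept its call without sample 5, sample 6, naive 1 or naive 3, and the heat shock genes lost theirs without sample 5, sample 6, naive 1 or naive 2.

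Reactive-state genes moved both ways. Of 27 disease-associated microglia genes, 6 rose and 3 fell, with a median of 0.39 that was -0.04 with sample 4 as the only treated sample. With 1 sample left out, 2 (without sample 5 or naive 2) to 11 (without sample 4) rose and 0 to 4 fell. Cst7, which encodes cystatin F, rose from 3.42, 5.18 and 10.6 to 30.1, 65.1 and 48.1 CPM (2.899 ± 0.38, edgeR adjusted p = 0.00164), and the tetraspanin gene Cd63 from 373, 396 and 438 to 850.4, 1349 and 1060.5 CPM (1.43 ± 0.22). Cd52 (0.73) and Ctsl (0.74) also rose. Trem2, the lipid receptor that drives the later step of this state, fell from 2089, 2172 and 1813 to 1303, 763 and 1143 CPM (-0.92 ± 0.21), and Ctsd (-1.29) and Cd9 (-0.89) fell with it.

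Secreted and scavenging genes held large rises, and Spp1, Lgals1 and Msr1 were highest in samples 5 and 6. Spp1, the osteopontin gene, stood at 2.61, 6.94 and 90.4 CPM in naive and 738, 3749.5 and 2216 CPM in treated samples (6.07 ± 1.201, edgeR adjusted p = 0.0152), with naive 3 well above naive 1 and 2. Lgals1, galectin-1, rose from 1.72, 0.997 and 4.54 to 8.19, 66.7 and 43.6 CPM (4.03 ± 0.79). Lrg1, a secreted glycoprotein gene, was close to 0 in naive (0.0404, 0.142 and 0 CPM) and stood at 3.39, 3.103 and 7.31 CPM in treated samples. The 22 genes of secreted matrix proteins and galectins had a median of 3.48 over all 3 treated samples and of -0.01 with sample 4 alone. Of these 3 rose, 1 without sample 5 or naive 2 and 10 without sample 4.

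Of 25 genes of lipid uptake and storage, 3 rose, and 1 did without sample 5, naive 1 or naive 2. Msr1, scavenger receptor A, stood at 3.800, 1.48 and 2.09 CPM in naive and 21.4, 206 and 126 CPM in treated samples (5.59 ± 0.94), so that sample 4 lay above all naive samples and far below samples 5 and 6. Cd36, a fatty acid receptor, rose from 0.121, 1.87 and 7.44 to 20.8, 94.5 and 61.04 CPM (4.22 ± 1.01), and Lpl, lipoprotein lipase, from 47.6, 58.4 and 84.2 to 118, 504 and 271 CPM (2.23 ± 0.45). Dab2, an endocytic adaptor, rose from 4.43, 5.38 and 9.44 to 20.4, 113 and 64.7 CPM (3.36 ± 0.59).

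Cholesterol genes, the subject of the study's title, mostly did not pass. Of 26 cholesterol synthesis genes 1 rose, Hsd17b7, from 1.19, 1.58 and 0.0796 to 14.2, 7.24 and 10.9 CPM (3.499 ± 0.87, edgeR adjusted p = 0.045), and it lost its call in each of the 6 fits without 1 sample. The share that rose was 3.85%, against 1.95% of all genes. The group's median was 0.52, with 22 positive fold changes, and 0.73 with sample 4 alone. Sqle, squalene epoxidase, stood at 1.496, 9.22 and 15.99 CPM in naive and 54.9, 54.4 and 43.8 CPM in treated samples (adjusted p = 0.14) and Cyp51 at 34.2, 28.2 and 24.4 and 58.6, 48.7 and 69.4 CPM (adjusted p = 0.0603), both without passing and both chosen after their values were seen. Of 20 genes of LXR targets and efflux, 1 fell, the transporter gene Abca9 (-1.24). The exporter genes Abca1 (-0.63, adjusted p = 0.257) and Abcg1 (-1.12, adjusted p = 0.0824) were lower in value in all 3 treated samples and did not pass.

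Among chemokine genes, values were mostly higher. Of 25, 20 had a positive fold change, and the median was 1.61 (0.28 with sample 4 alone). In 9 the treated samples lay wholly above the naive ones (22.8% of all genes did not overlap, in either direction). By edgeR 1 rose, Ccl12, a ligand of CCR2, from 127, 393 and 242 to 624, 2565 and 1558 CPM (2.64 ± 0.46), while 12 had an unadjusted p under 0.05 and DESeq2 called 10 higher. Of 23 cytokine genes 0 passed in either direction by edgeR, while 11 had an unadjusted p under 0.05 and DESeq2 called 1 higher. Of 39 genes of Toll-like receptor and NF-kB signalling 0 rose and 2 fell, Irak2 (-1.11) and Cd180 (-0.75). Both lost their call without sample 5, sample 6 or any 1 naive sample, and DESeq2 called 1 member higher and 4 lower. Tlr4, the endotoxin receptor studied in this neuropathy, stood at 119.5, 106 and 134 CPM in naive and 84.8, 107 and 83.6 CPM in treated samples and did not pass (adjusted p = 0.41, chosen after its values were seen).

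In the complement group C4b rose and C5ar1 (1.21) passed, of 18. C4b was close to absent in naive (0.0606, 0.0356 and 0.0159 CPM) and reached 4.02, 9.02 and 1.32 CPM in treated samples (6.97 ± 0.83, edgeR adjusted p = 0.000872), and it also passed with sample 4 as the only treated sample (adjusted p = 0.00662). Its naive values rest on 6 counts in all, so the size of its fold change depends on the prior count of the fit. Of 42 interferon-stimulated genes Ifi207 (4.44) and Ifitm3 (2.404) rose (4.76% of the group, against 1.95% of all genes). In antigen presentation, 1 of 26 rose and 2 fell: Cd74 (2.44) rose, and the class I genes H2-M3 (-0.84) and H2-K1 (-0.67) fell. The rise of Cd74 did not pass without sample 5, sample 6, naive 1 or naive 3. H2-M3 kept its call in each of the 6 fits without 1 sample, and H2-K1 in 1 of them. Ifi30, the lysosomal thiol reductase of antigen processing, rose from 70.2, 76.5 and 92.4 to 297, 198 and 284 CPM (1.702 ± 0.24). Class I, Ifitm and Ccl genes have close paralogs, so reads may be shared among them.

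Fc and paired receptors split, with 5 of 41 higher and 4 lower. Without sample 5, 1 rose and 1 fell, without sample 6, 2 and 2, and without sample 4, 10 and 6. Pilra, an inhibitory paired receptor gene, rose from 38.3, 29.8 and 35.5 to 71.9, 255 and 155 CPM (2.22 ± 0.37), and Fcgr4, an activating Fc receptor gene, from 40.3, 28.9 and 25.2 to 60.4, 171 and 105 CPM (1.84 ± 0.37). Sirpa, the receptor of the signal CD47, fell from 2059, 2399.5 and 2009 to 1329, 795 and 1098 CPM (-1.005 ± 0.19), and Fcrl1 from 122, 80.8 and 105 to 29.4, 7.83 and 9.45 CPM (-2.72 ± 0.56).

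In the lysosome 5 of 46 genes rose and 2 fell, while 32 had a negative fold change (median -0.25). In 17 the treated samples lay wholly below the naive ones and in 7 above (22.8% of all genes did not overlap, in either direction). DESeq2 called 5 higher and 6 lower, and without sample 5, 2 rose and 1 fell by edgeR. Hexa, a subunit of beta-hexosaminidase, fell from 1769, 1714 and 1518 to 912, 598 and 794 CPM (-1.12 ± 0.17, edgeR adjusted p = 0.0042). Gla, alpha-galactosidase A, rose from 5.195, 2.49 and 2.79 to 19.3, 27.7 and 17.9 CPM (2.63 ± 0.42), and Gusb (0.78) and Ctsc (1.29) were higher as well. Of 33 actin genes 4 rose, among them cofilin, Cfl1 (0.96), and 0 fell, but 0 passed in either direction without sample 5, sample 6 or naive 3. Of 24 glucocorticoid-responsive genes only the receptor gene Nr3c1 passed (-1.04), and of 28 immediate early genes 0 passed by edgeR or DESeq2 (3 had an unadjusted p under 0.05). The summed level of the immediate early genes varied widely within each group. It was 27342, 55422 and 23354 CPM in naive and 33404, 10792 and 18648 CPM in treated samples. Of the 6 fits without 1 sample, 4 kept the call of Nr3c1, 2 those of Irf2 and Fth1, and 1 those of Abca9, C5ar1, Ifitm3 and Clec4n.

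Genes in no list were among those with the smallest p or, for Cd72, among the largest rises kept in all 6 leave-outs. Cyp4f18, which oxidises leukotriene B4, rose from 20.6, 20.1 and 29.5 to 81.2, 144 and 113 CPM (2.27 ± 0.26, edgeR adjusted p = 0.000755). Tspo, the outer mitochondrial protein whose ligands are used to image reactive microglia, rose from 188, 219 and 248 to 624, 807 and 799 CPM (1.77 ± 0.20). Naaa, the acid amidase that breaks down palmitoylethanolamide, rose from 115, 169.5 and 196 to 496, 804 and 785 CPM (2.12 ± 0.26). Nme1, a nucleoside diphosphate kinase gene, rose from 13.2, 13.2 and 16.8 to 51.9, 114 and 58.9 CPM (2.38 ± 0.29), and the inhibitory receptor gene Cd72 from 19.02, 24.3 and 25.3 to 96.7, 211 and 119 CPM (2.64 ± 0.41). In all 5 the treated samples lay above the naive ones.

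**Figure D3:**
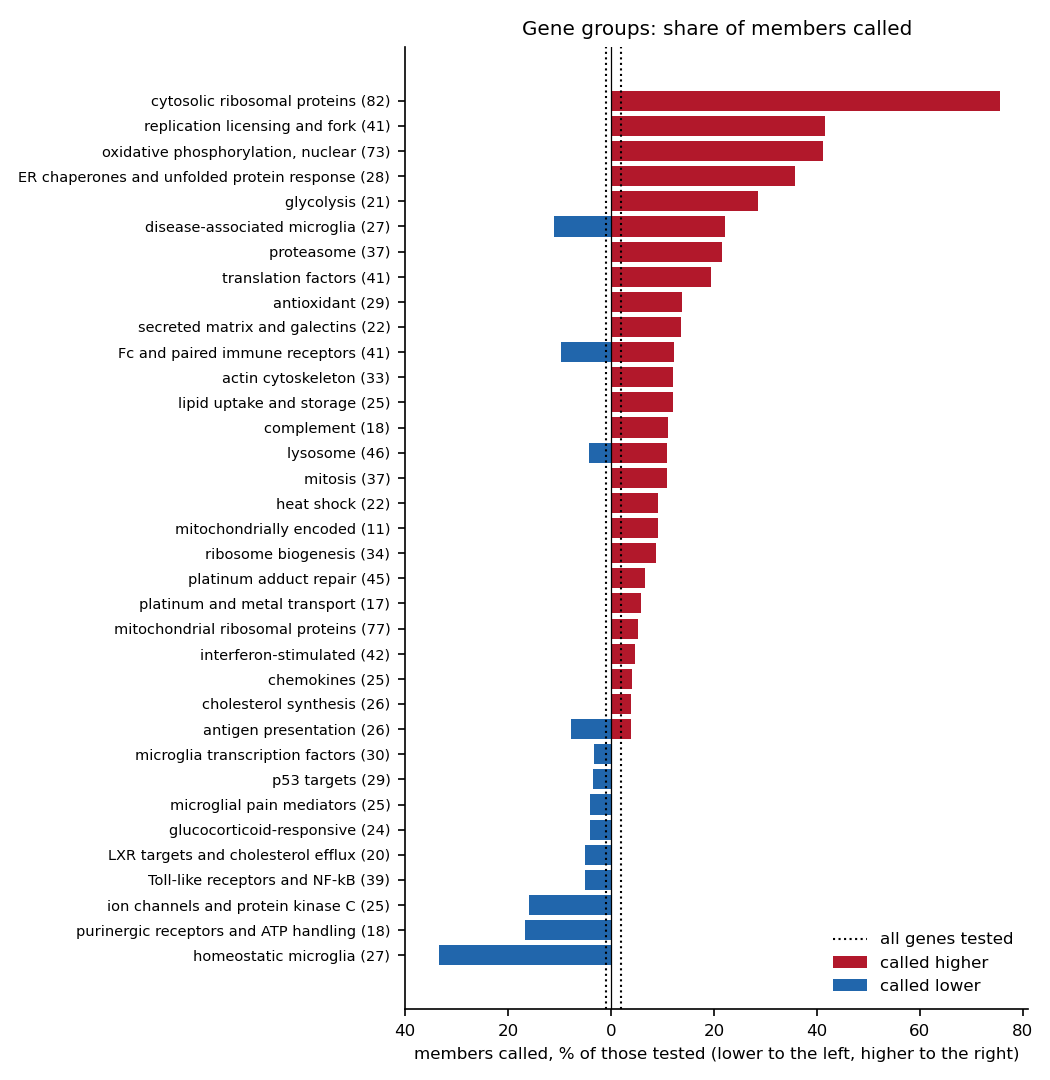
Share of tested members called higher (red, to the right) or lower (blue, to the left) in each gene group with at least 10 tested members and 1 call. Numbers in parentheses are members tested and dotted lines the shares over all genes, 1.95% higher and 0.953% lower. Ribosomal proteins reached 75.6% and homeostatic genes 33.3%.

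Markers of other myeloid cells were present in treated samples 5 and 6. Ccr2, the chemokine receptor of monocytes, stood at 0.182, 3.42 and 3.36 CPM in naive and 0.324, 95.3 and 62.8 CPM in treated samples, and in every one of the 6 libraries of samples 5 and 6 it lay between 50.5 and 114 CPM, against at most 0.591 in those of sample 4. The summed level of 10 monocyte markers was 4.63 to 82.9 CPM in naive samples, 248 in sample 4, 1166 in sample 5 and 775 in sample 6. Fn1 made most of it where it was high: 51.6 CPM in naive 3, and 236, 874 and 563 CPM in samples 4, 5 and 6. The sum of 10 border macrophage markers was 0.214 to 4.87 CPM in naive samples, 1.43 in sample 4, 214 in sample 5 and 209 in sample 6, with Lyve1 at 0 and Cd163 at most 0.0817 CPM. F13a1, at 0.152, 80.8 and 49.2 CPM in treated samples, is in both sums. The neutrophil markers S100a9, Ly6g, Camp, Ngp and Retnlg were at 0 in all 6 samples, while Mmp8 reached 12.7 and 8.89 CPM and S100a8 2.43 and 1.86 CPM in samples 5 and 6.

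Between libraries of 1 sample, several of these markers were patchy. Pf4 ranged from 4.99 to 100.3 CPM over the libraries of sample 5 and from 0.121 to 83.3 CPM over those of sample 6, and Ly6c2 from 0 to 17.9 and 1.63 to 32.2 CPM. Of the 3 marker lists, 1 gene passed the test, Clec4n, a lectin receptor gene, at 0.0606, 0.0534 and 0.175 CPM in naive and 0.0762, 58.3 and 102 CPM in treated samples, where sample 4 lay within the naive range. Its log2 fold change was 9.06, and -0.30 with sample 4 alone.

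**Figure D4:**
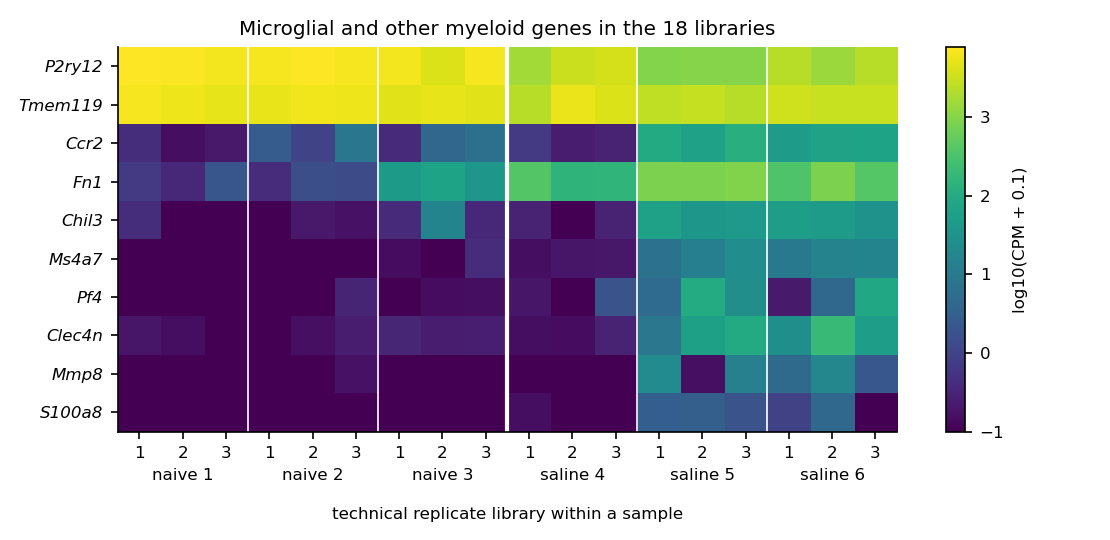
Log10 of CPM plus 0.1 of 10 genes in the 18 technical replicate libraries, 3 for each of the 6 samples, with the thick line between groups. P2ry12 and Tmem119 are high in every library, and Ccr2, Chil3 and Ms4a7 are raised in all 6 libraries of saline 5 and 6 and in none of saline 4.

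Gene groups differed in whether sample 4 shared the change. As the median over members of log2((CPM + 1)/(naive mean CPM + 1)), replication genes stood at 1.55, 1.800 and 1.38 in samples 4, 5 and 6, ribosomal proteins at 0.80, 1.22 and 1.12, respiratory chain genes at 0.52, 0.83 and 0.80, cholesterol synthesis at 0.55, 0.48 and 0.57 and homeostatic genes at -0.63, -1.28 and -0.70. Proteasome genes (0.32 in sample 4, 0.93 and 0.71 in samples 5 and 6) and ER chaperones (0.38, then 1.08 and 0.69) were less raised in sample 4. Ribosome biogenesis (0.08, then 1.05 and 0.62) and disease-associated genes (-0.06, then 0.41 and 0.63) lay near the naive level in sample 4 and above it in samples 5 and 6.

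Of the 400 rises, 397 had sample 4 above all 3 naive samples, and of the 195 falls all had sample 4 below them. The exceptions were Clec4n, C5ar1 and Crip1. Sample 4 was part of the comparison that called these genes, so these counts describe the calls and do not test them. With samples 5 and 6 left out together, 7 genes passed, among them Rpsa, Rpl38, Rps21, C4b, Ifi30 and Dnmt1, where the lone treated sample is assumed to vary like the samples of the other groups. Of markers of other cells, the summed level of 6 endothelial genes was 25.4 to 44.7 CPM in naive and 10.1 to 13.8 CPM in treated samples, with 0 members passing by edgeR (2 with an unadjusted p under 0.05, 1 called lower by DESeq2). The part of other cells in any of the changes was not tested.

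**Figure D5:**
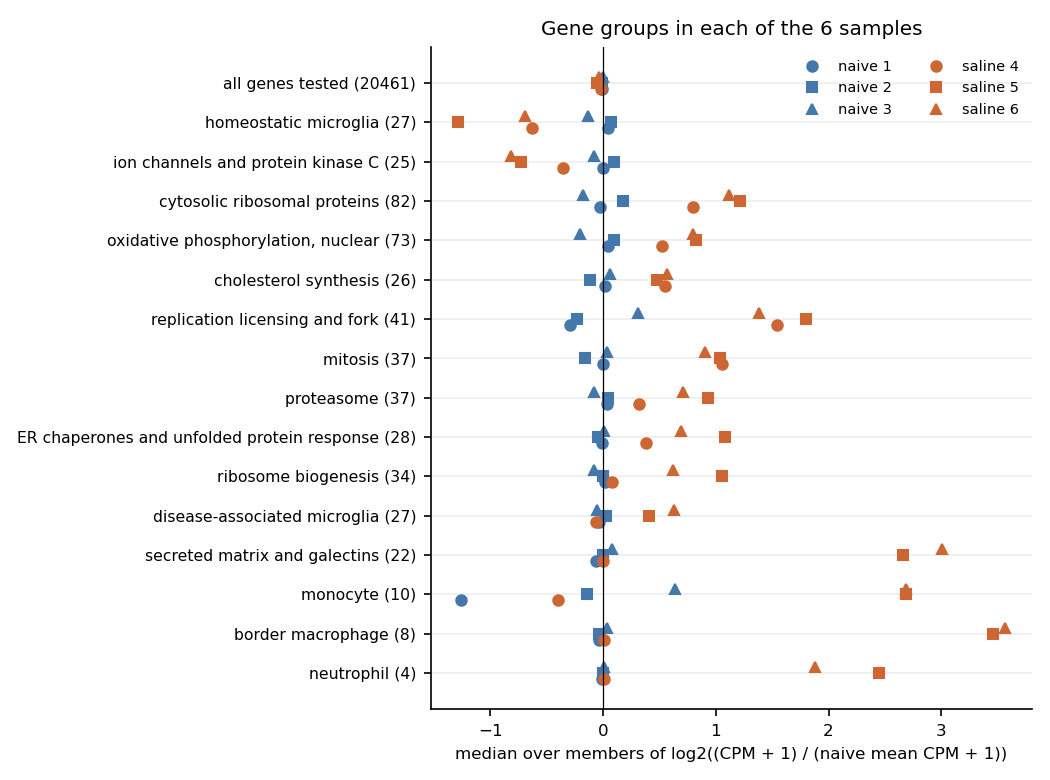
Median over members of log2((CPM + 1)/(naive mean CPM + 1)) for all genes and 15 gene groups in each of the 6 samples (naive blue, treated orange, members tested in parentheses). Replication, ribosomal and homeostatic genes are displaced in all 3 treated samples. The medians of monocyte, border macrophage, neutrophil and matrix genes are displaced in samples 5 and 6 but not in sample 4. The summed levels of monocyte and matrix genes in sample 4 (248 and 2248.5 CPM) were above the highest naive sums (82.9 and 1344.3 CPM).

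The same treatment in mice with floxed Abca1 and Abcg1 and Cx3cr1-CreERT2 (3 treated against 3 naive samples, separate from those above) gave values that can be set beside these. P2ry12 had -1.82 in WT and -2.01 in the floxed mice, Rpsa 1.88 and 1.304, and Cyp4f18 2.27 and 3.28. Values were further apart for Cd72 (2.64 and -0.18), Top2a (4.16 and -1.13), Gla (2.63 and 0.30), Per3 (-1.93 and -0.03) and Adap2os (-1.62 and -0.37). These 8 genes are examples from the named genes. Of 20461 genes tested, 0 had a difference between the genotypes that passed, so none of these 8 did. The adjusted p of the interaction (edgeR, over all genes) was 0.374 for Cd72, 0.411 for Per3 and 0.512 for Gla.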

How the data were processed

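The authors deposited raw counts per gene (unit: counts) for 53715 genes and 102 runs. Per the submitters' processing notes, bcl2fastq, FastQC 0.11.17, MultiQC 1.7, STAR 2.6.0a, DESeq2 and GRCm38 were used; the counting tool and strand setting are not given in the sources used here. A deposited normalized table was not used. The 6 runs of a numbered sample (3 technical replicates on 2 lanes) were summed, and genes were named from GENCODE M21 (95 without a symbol).

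Counts were fitted with edgeR 4.0.16 in R 4.3.3: filterByExpr by group (20461 genes), TMM factors from 0.885 to 1.11, and the quasi-likelihood F test (two-sided, Benjamini-Hochberg, threshold 0.05) in a group means model of all 17 samples with 11 residual degrees of freedom. CPM were divided by TMM-scaled depth, and fold changes are given as log2 ± SE. The number of samples, 3 a group, limits the precision.

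Tested on simulated data of this comparison (19562 genes), the fit recovered 25 of 95 genes changed 4-fold, and 23 of 30 at 20 CPM or more. It recovered 4 of 98 changed 2-fold and called 1 of 19369 unchanged genes. The simulated counts were drawn independently for each sample, with the spread estimated by the same fit. They hold no signal shared by only some samples of a group, so these rates do not cover such signals.

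The 51 gene lists, the rule for named genes and the alternatives were chosen with earlier results of these data known. Named genes were up to 6 called members of each list by smallest p (2 where none passed), the 15 rises and 15 falls with the smallest p at 20 CPM or more, the 10 largest of each kept in all 6 leave-outs, and markers of other myeloid cells. Some further members that complete a complex or pathway were chosen after their values were seen. Naive samples are numbered 1 to 3 and treated samples 4 to 6, so they cannot be paired. Alternatives, among them DESeq2 1.42.0 and limma 3.58.1, are in the closing section.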

Additional observations from a re-analysis of the deposited data

How the results depend on the processing

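The 595 calls (400 higher, 195 lower) were 630 with size factors of the DESeq2 kind and 602 without a filter on low counts. The count depended on the test and samples. A stricter filter (10 CPM in 3 samples) gave 1050 (723 higher, 327 lower) and a fit of the 6 samples alone 69 (61 higher, 8 lower). Leaving out 1 sample in turn gave 149 (without saline 5) to 853 (without saline 4), with 122 to 543 higher and 27 to 310 lower; it was 221, 279 and 337 without naive 1, 2 and 3 and 220 without saline 6. Without saline 5 and 6 together it was 7 (7 higher, 0 lower, with 575 lower at an unadjusted p under 0.05 and 1 treated sample left). Without technical replicate 1, 2 or 3 it was 522, 287 or 381, with 199 higher without the second and 102, 88 or 93 lower. DESeq2 gave 2094 (1292 higher, 802 lower) and limma-voom 672; by DESeq2 18 homeostatic genes fell, and 24 replication, 48 respiratory chain and 74 ribosomal protein genes rose. With the technical replicate number as a replicate block and libraries as units (limma-voom, correlation within a sample 0.0886, 16535 genes tested) the count was 1840 (1202 higher, 638 lower). At that correlation the 3 libraries of a sample count nearly as independent, so this count does not rest on biological samples alone. Of the main calls, 595 were among those of DESeq2, 557 among those of the replicate block fit and 148 among the 149 without saline 5. No pairing of samples between the groups was possible because they share no number. Of the 137 named genes that passed (of 164 named), 1 changed direction under any alternative: Clec4n, at -0.30 without saline 5 and 6. Changes of sign in genes that passed in neither fit were not counted. The cause of these differences was not tested.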

Other observations

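Per3 was not the only clock gene that was lower in value. Of 19 genes of the circadian clock chosen after the values were seen, 17 were tested, 15 had a negative fold change, 7 had groups that did not overlap and 1, Per3, passed by edgeR (22.8% of all genes had groups that did not overlap). Dbp, an output gene of the clock, stood at 12.6, 16.8 and 18.6 CPM in naive and 5.01, 3.79 and 8.56 CPM in treated samples (-1.47 ± 0.58, adjusted p = 0.213). Nr1d2, which encodes REV-ERB beta, stood at 21.3, 28.996 and 24.3 and 9.73, 8.84 and 7.404 CPM (-1.52 ± 0.61, adjusted p = 0.225), and Cry2, a repressor of the clock, at 11.6, 11.3 and 5.796 and 1.01, 2.57 and 1.93 CPM (-2.38 ± 0.76, adjusted p = 0.122). The activator genes Arntl (14.5, 13.6 and 23.2 and 16.1, 14.3 and 12.2 CPM) and Clock (26.2, 32.3 and 53.2 and 34.5, 34.7 and 27.4 CPM) had overlapping groups.

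The cytokine genes Il1b and Tnf, also chosen after their values were seen, were higher in value in every treated sample without passing. Il1b stood at 0.0809, 5.39 and 4.51 CPM in naive and 24.1, 24.7 and 22.8 CPM in treated samples (2.84 ± 1.18, adjusted p = 0.239), and Tnf at 24.5, 85.8 and 49.5 and 268, 100.5 and 123 CPM (1.62 ± 0.65, adjusted p = 0.225). In both genes naive 1 was the lowest sample, and sample 4 was the highest for Tnf.

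The class II gene H2-Aa was high in samples 5 and 6, as the monocyte markers were, at 0.0202, 0.0178 and 0.35 CPM in naive and 0.0571, 52.4 and 78.1 CPM in treated samples (adjusted p = 0.0803). Cd74, the invariant chain that accompanies class II, stood at 99.9, 142 and 88.5 and 150.2, 853 and 789 CPM and passed, with a log2 fold change of 2.44 that was 0.50 with sample 4 as the only treated sample.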
